A study of Mus musculus with 2 samples.

Results

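The genes described here are the caspases, the Bcl2 family, the death receptors and their signalling partners: 40 genes, chosen by name from a fixed list of cell death genes, out of 27376 distinct gene names on the array. All 40 were present by the gene name in the scanner files, with 74 probes among them. Lens RNA at postnatal day 1 was profiled from 2 genotypes on 1 array each: Msx2 conditional knockout (CKO) mice, in which the homeobox gene Msx2 was deleted with the Le-Cre transgene, and wild-type (WT) mice. Le-Cre expresses Cre recombinase in the lens and in other tissue of the embryonic eye surface. Whether the WT mice had the transgene is not stated in the labels, nor is the number of animals behind each RNA. With 1 array per genotype no difference below has a replicate check, and none has a p-value. The question of the comparison is how transcripts of the newborn lens differ without Msx2.

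Caspases are proteases that dismantle a dying cell. In the intrinsic pathway, proteins of the Bcl2 family decide whether the outer mitochondrial membrane is opened: Bax and Bak1 open it, Bcl2 and its relatives hold it closed, and BH3-only proteins tip the balance, after which Apaf1 assembles the apoptosome that activates Casp9. In the extrinsic pathway, receptors such as Fas and Tnfrsf1a recruit Fadd or Tradd and activate Casp8, or, through Ripk1 and Ripk3, start necroptosis, an inflammatory form of cell death. Lens fibre cells lose their nuclei and organelles as they mature, a process with some likeness to apoptosis in which the cell survives.

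The probes behind the results that follow are shown here by their first 30 bases of 60, as the scanner files print them, with positions in mm9 and the strand of the gene in those files. They are shown because each gene's value rests on what its probe binds. Nothing in them is capitalised, and the files do not say which part of the transcript a probe covers.
Tnfrsf1a, chr6:125312376-125312435, plus strand: agcaatctttgtatcaattatatcacacta
Ripk3, chr14:56403949-56404008, minus strand: tgaagtgtgccattcagcgtggcaataaaa
Tnfrsf10b, brightest probe, chr14:70175991-70176048, plus strand: ctctggttccagtagtgctgctgattggag
Tnfrsf10b, second probe, chr14:70177538-70177597, plus strand: ggatcccgaaagtgcgaactctgtgcattc
Casp4, chr9:5336645-5336704, plus strand: tatgaattcaagaccagcctaagcaacaca
Casp8, chr1:58901601-58901660, plus strand: gtgaagaactgcgtttcctaccgagatcct
Apaf1, brighter probe, chr10:90452580-90452639, minus strand: aacaaaatcttgtatagggttaaggaaggt
Bax, chr7:52721469-52721624, minus strand: cagatcatgaagacaggggcctttttgcta
Bcl2, brightest probe, chr1:108434793-108434852, minus strand: catataatggctctttgtttgtgttgttag
Bcl2l2, chr14:55506584-55506643, plus strand: gaaaaccagggactgtcttttagagccata
The mapped stretch of the Bax probe is 156 bases long, more than the 60 bases of the probe itself. To see how far a probe's sequence recurs, exact runs of 16 bases shared with 32851 RefSeq promoter windows were counted, and 70 of the 74 probes shared one with at most 1 window. The probe of Bid stood apart with 45 windows, so its signal is uncertain. Promoter windows are not transcripts, so a low count does not show that a probe binds only its own gene's transcript.

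The genotype and tissue named in the labels were checked first. Msx2 itself was well above background in WT only, and was at least 22.6-fold lower in CKO. All 15 lens fibre markers on the array were measured in both samples, with a summed signal of 2194690 intensity units in CKO and 2510040 in WT. Of 41174 probes, 55.1% in CKO and 54.2% in WT were well above background, which is the scanner software's own mark for a spot clearly brighter than its surroundings. Genes with a probe marked so on both arrays are called measured, which held for 14232 genes, or 52% of all. Levels are processed signals in intensity units, and a difference is log2 CKO minus log2 WT after each array was scaled to its 75th percentile. The median difference of all measured genes was -0.12. A single spot carried an SD of 0.10 in the log2 difference for the brighter of the repeated probes and 0.36 for the dimmer, and different probes of a gene differed with an SD of 0.36.

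Of the 40 genes, 32 (80%) were measured on both arrays, 4 (10%) were well above background in CKO only, 1 in WT only and 3 on neither. Over all genes on the array, 3.93% were seen in CKO only and 3.19% in WT only. The receptor gene Tnfrsf1a and the necroptosis kinase gene Ripk3 were the only measured members at least 2-fold higher in CKO, so 2 of 32 (6.25%) stood against 4.11% of all measured genes. No member was at least 2-fold lower, against 3.99% of all measured genes. In addition Casp4, Casp8 and Apaf1 were seen in CKO only with an at-least fold of 2 or more, which is 3 of 40 (7.5%) against 1.37% of all genes on the array. No member was seen in WT only with such a fold, against 0.8% of all genes. An at-least fold sets the signal of the bright array against the higher of the lowest signal that counts as well above background on the dim array, about 16.5 units, and the probe's own signal there. Of the 32, 24 (75%) lay within 1.5-fold, close to the 75.9% of all measured genes that did, and the median difference was 0.04, or 0.16 above the median of all genes.

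**Figure D1:**
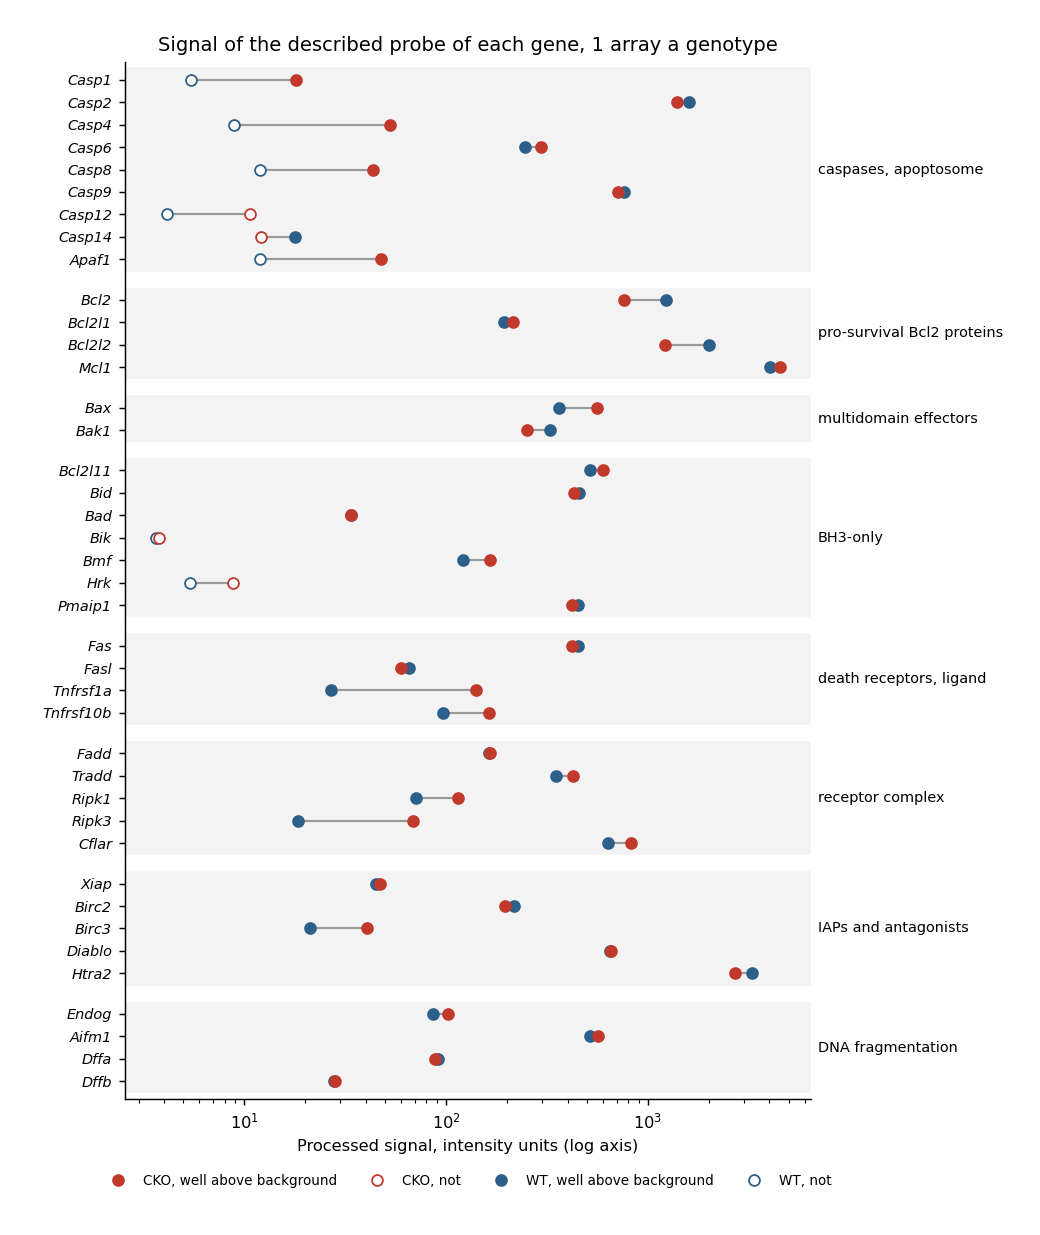
Processed signal (intensity units, log axis) of the described probe of each of the 40 genes in CKO (red) and WT (blue), 1 array a genotype, filled where well above background and open where not. The widest gaps between filled and open or between filled points belong to Casp4, Casp8, Apaf1, Tnfrsf1a and Ripk3, with CKO the higher in each.

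Among the death receptors, Tnfrsf1a stood apart. Tnfrsf1a encodes the main receptor of the cytokine TNF and is made by many cell types. Its probe was printed 10 times on each array, of which 7 spots in CKO and 9 in WT were used after outlier spots were left out. In CKO the spots ranged from 132 to 149 units around a median of 139, and the mean was 140 ± 7.67 (SD over 7 spots of 1 array). In WT they ranged from 20.7 to 33.6 around a median of 25.6, with a mean of 26.8 ± 4.51 (SD over 9 spots of 1 array). No spot of the CKO array overlapped the WT array, which held for 58.7% of the 126 repeatedly printed probes measured on both arrays and is therefore common, and Tnfrsf1a was 5.19-fold higher in CKO (log2 difference 2.38). The spot SD covers the printing and scanning of 1 RNA, not the spread between animals. Normexp, another background correction, was run with an offset of 50 units, which shrinks the differences of dim probes, and with it the log2 difference was 1.17. The offset alone would hold a probe of these signals to 2.47-fold.

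Tnfrsf10b, the mouse receptor for the death ligand TRAIL, had 3 measured probes, all of them higher in CKO by unequal amounts. The probe with the brightest mean gave 163 units in CKO and 96.1 in WT, which is 1.69-fold. The second probe, about as bright in CKO, gave 173 and 51.6, which is 3.33-fold, and the third gave 70.1 and 24.1, which is 2.88-fold. All 3 probes thus ran the same way, and only the rule of taking the brightest kept this gene under 2-fold. With the mean of its probes its log2 difference was 1.34. Dimmer probes leaned towards CKO in general. Among genes with more than 1 measured probe, the brightest had the lowest difference in 10 of 15 members and in 55.7% of all 4844. Over all of these genes the dimmer probes lay a median of 0.10 above the brightest.

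Fas, the receptor of Fas ligand, was close between the genotypes. The 10 spots of its bright probe ranged from 390 to 446 units in CKO and from 425 to 462 in WT, so the arrays overlapped, with means of 419 ± 21.3 and 448 ± 11.4 (SD over 10 spots of 1 array). A second Fas probe, assigned by the files to another transcript, gave 58.6 units in CKO and 37.2 in WT, a log2 difference of 0.65 in the opposite direction. Fasl, the ligand that cytotoxic lymphocytes use to kill, was also close between the genotypes. A probe printed once gave 60.2 units in CKO and 65.8 in WT. The other Fasl probe, printed repeatedly, lay near 4 units on both arrays, at 4.07 ± 0.41 and 4.06 ± 0.47 (SD over 9 spots of 1 array), and 0 of the spots used were well above background. The probes of Fasl therefore differed in whether the gene was detected at all.

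**Figure D2:**
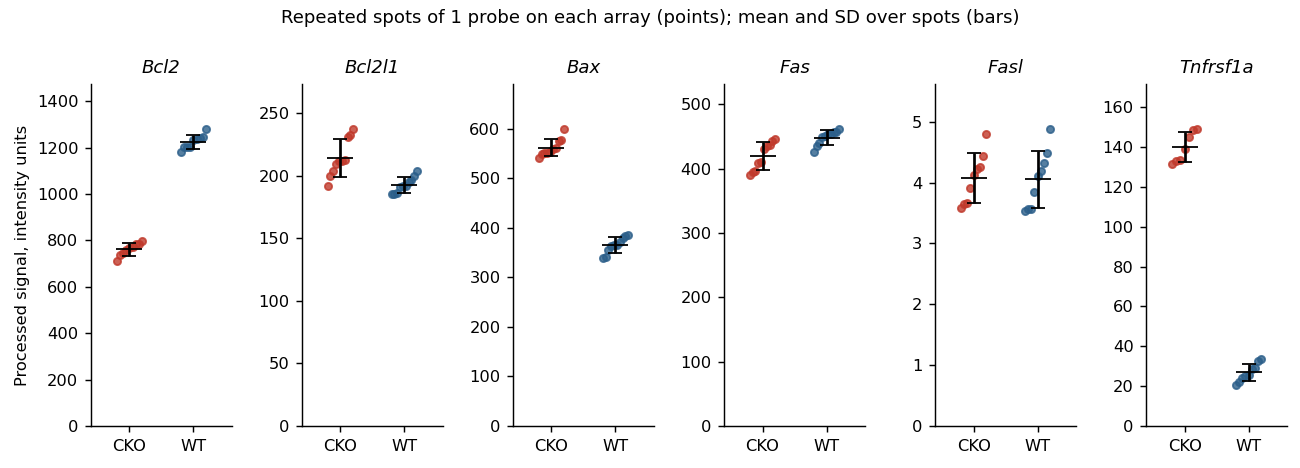
Processed signal (intensity units, axes from 0) of every spot used for the 6 genes whose probe was printed repeatedly on each array, with the mean and SD over spots of that array. The spots of Bcl2, Bax and Tnfrsf1a do not overlap between CKO and WT, as held for 58.7% of all repeatedly printed, measured probes, and those of Bcl2l1, Fas and Fasl do.

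Downstream of the receptors, each of the 5 genes of the signalling complex had a difference above the all-gene median, and their own median of 0.37 was 0.49 above it, the widest such gap among the 8 role groups. Ripk3, the kinase that commits a cell to necroptosis, gave 68.3 units in CKO and 18.4 in WT from its one probe. WT lay close to the lowest signal that counts as well above background, and Ripk3 was 3.68-fold higher in CKO (log2 difference 1.88). With normexp the log2 difference was 0.70, and the offset of 50 units alone would hold a probe of these signals to 1.73-fold. Ripk1, its partner kinase, had 2 measured probes, at 115 units in CKO against 71.3 in WT and at 42.5 against 22.9. Both were higher in CKO, with log2 differences of 0.68 and 0.88, short of 2-fold. The remaining probe was not well above background on either array, at 19.5 and 7.73 units. The adaptor genes differed less. Fadd, which links Fas to Casp8, gave 164 and 163 units, and Tradd, which links Tnfrsf1a to Ripk1, gave 424 in CKO and 350 in WT. Mlkl, the protein that Ripk3 phosphorylates to rupture the membrane, was not well above background on either array, at 8.61 and 8.77 units.

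Cflar, which encodes c-FLIP, the inhibitor that holds Casp8 in check at the receptor, was the member with the most probes, 7 in all and 6 of them measured. Its probes did not run the same way. The brightest, chr1:58815592-58815651 in mm9, gave 824 units in CKO and 631 in WT, a log2 difference of 0.37. A pair of probes that overlap on the genome, chr1:58811116-58811175 and chr1:58811096-58811160, were higher in CKO too, by 0.65 and 0.48. These 3 lie towards the far end of the gene as transcribed on the plus strand. The 3 measured probes nearer its start were lower or level: chr1:58770546-58770605 gave 236 units in CKO and 407 in WT (log2 difference -0.79), and the others gave -0.45 and -0.07. The seventh probe, also near the start, was well above background in CKO only, at 26.3 units against 19.9. The files assign these probes to different Cflar transcripts. The split between the ends of the gene was seen in the probes after the fact and has no replicate.

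**Figure D3:**
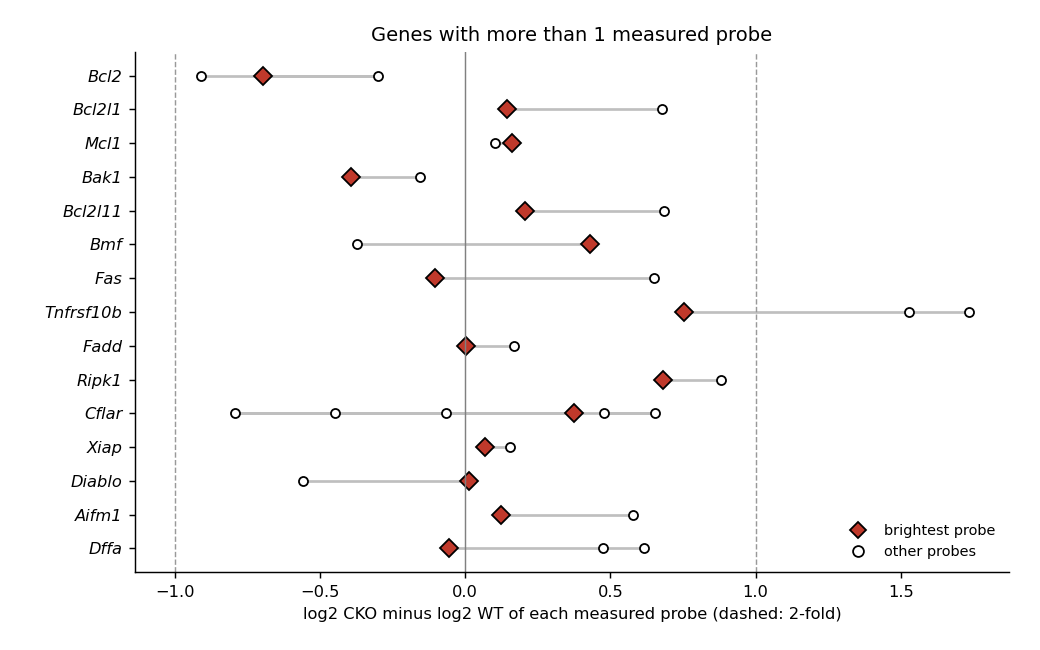
log2 CKO minus log2 WT of every measured probe of the 15 genes with more than 1, with the brightest probe as a red diamond and the others as open circles. The probes of 10 genes all lie on 1 side of 0, the 3 of Tnfrsf10b all lie above it, and the 6 of Cflar run from -0.79 to 0.65.

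Among the caspases, only Casp2, Casp6 and Casp9 were measured on both arrays, and none of these differed by 1.5-fold. Casp9, the initiator caspase of the apoptosome, gave 712 units in CKO and 758 in WT. Casp2, a caspase linked to DNA damage and to errors of cell division, gave 1390 and 1593. Casp6, an effector caspase, gave 296 and 246. The largest difference in this group was thus 0.26 on the log2 scale, for Casp6.

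The other 5 caspases were near the detection limit, and 3 of them were seen in CKO only. Casp8, the initiator caspase of the death receptors, gave 43.4 units in CKO, well above background, and 12.02 in WT, which was not, so it was at least 2.6-fold higher in CKO. Casp4, the inflammatory caspase that senses bacterial lipopolysaccharide inside the cell, gave 53.02 and 8.87 units, at least 3.18-fold higher. Apaf1, the scaffold of the apoptosome, gave 47.8 and 12.01 units with its brighter probe, at least 2.87-fold higher. A second Apaf1 probe was also well above background in CKO only, at 23.0 and 3.88 units, and the third was not on either array, at 19.9 and 5.89 units. All 3 probes of Apaf1 were brighter in CKO. Casp1, the caspase that matures interleukin 1, gave 18.1 units in CKO and 5.48 in WT and passed the limit in CKO by little, at least 1.08-fold. Casp12, an inflammatory caspase, reached 10.72 and 4.15 units and was not well above background on either array. Casp14, a caspase of the cornifying epidermis, ran the other way, with 17.8 units in WT and 12.1 in CKO, at least 1.09-fold lower in CKO. With normexp the log2 differences of these dim probes were 0.75 for Casp4, 0.48 for Apaf1, 0.40 for Casp8, 0.30 for Casp1 and -0.17 for Casp14. At these signals the offset of 50 units alone keeps each ratio under 2-fold (1.75-fold for Casp4), so normexp could not have given a call for them.

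Several of these genes are neighbours. The probes of Casp1, Casp4 and Casp12 lie within 66.1 kb on chromosome 9 (chr9:5306226-5372317, mm9), and all 3 probes were brighter in CKO. None of the 3 was well above background in WT, and that of Casp12 was not in CKO either. The probes of Cflar and Casp8 lie within 131.1 kb on chromosome 1, and those of Birc2 and Birc3 within 37.5 kb on chromosome 9. These neighbours did not share a direction throughout. Casp8 was seen in CKO only while the probes of Cflar ran both ways, and Birc2 and Birc3 had log2 differences of -0.15 and 0.94.

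Promoter windows, from 250 bases before to 50 after the start, were available for 35 of the 40 genes in the RefSeq table of GRCm38.p6. Only the 250 bases before the start were searched, on both strands, for the consensus motifs of NF-κB and p53. NF-κB is the factor through which TNF signals, and p53 activates Bax after DNA damage. The NF-κB motif was present in 4 of 46 promoters of the members (8.7%) and in 7.25% of all 32851 promoters. The p53 decamer was present in 3 of 46 (6.52%) and in 7.13% of all, so the shares were close to those over all promoters. The 4 include a pair of overlapping Casp4 windows. The members with a match were Aifm1, Bcl2l1 and Casp4 for NF-κB and Bax, Bmf and Fasl for p53. The 250 bases before the start of Casp4 and Bax are shown with the matches in capitals, because these genes differed between the arrays.
Casp4, chr9:5308599-5308848, GRCm38.p6, plus strand, NF-κB motif: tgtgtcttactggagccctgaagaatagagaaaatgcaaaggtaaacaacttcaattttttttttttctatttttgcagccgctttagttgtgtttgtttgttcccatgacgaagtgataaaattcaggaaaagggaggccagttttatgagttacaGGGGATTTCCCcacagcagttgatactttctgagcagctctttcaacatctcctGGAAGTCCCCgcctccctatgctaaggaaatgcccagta
Bax, chr7:45466899-45467148, GRCm38.p6, minus strand, p53 decamer: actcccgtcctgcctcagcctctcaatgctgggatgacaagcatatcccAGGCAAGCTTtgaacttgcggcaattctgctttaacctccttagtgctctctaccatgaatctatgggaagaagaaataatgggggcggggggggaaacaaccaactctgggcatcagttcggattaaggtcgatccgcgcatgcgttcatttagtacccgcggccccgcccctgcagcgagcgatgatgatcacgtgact
In the Casp4 window the first run in capitals holds overlapping matches. A match is a description of the letters and does not show that the factor binds there.

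In the Bcl2 family, Bax was higher in CKO, Bcl2 and Bcl2l2 were lower, and the other multidomain members differed by under 1.5-fold. Bax, which opens the outer membrane, was higher in CKO: its spots ranged from 542 to 600 units in CKO and from 340 to 386 in WT, with means of 561 ± 17.5 and 365 ± 15.9 (SD over 10 spots of 1 array). The spots did not overlap, and Bax was 1.53-fold higher (log2 difference 0.61). Bcl2, the founding pro-survival member, was lower: its spots ranged from 710 to 799 units in CKO and from 1183 to 1282 in WT, with means of 762 ± 27.8 and 1227 ± 30.2 (SD over 9 spots of 1 array). Again the spots did not overlap, and Bcl2 was 1.62-fold lower (log2 difference -0.70). The other probes of Bcl2 were lower in CKO as well, at 458 against 854 units and at 76.8 against 93.9. Under the other scalings and background corrections Bax stayed between 0.53 and 0.71 and Bcl2 between -0.56 and -0.78 on the log2 scale. Both differences were therefore larger than the spread between spots and smaller than 2-fold.

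Bcl2l2, which encodes the pro-survival protein Bcl-w, showed the lowest difference of the 32 measured members. It gave 1214 units in CKO and 2013 in WT, which is 1.67-fold lower. A dimmer probe was well above background in WT only, at 33.7 units against 13.3. The remaining pro-survival genes were close between the genotypes with their brightest probes. Mcl1, a short-lived protein that many cells need to survive, gave 4509 and 4007 units, and its second probe 436 and 403. Bcl2l1, which encodes Bcl-xL, gave 214 ± 14.9 units in CKO and 193 ± 6.21 in WT (SD over 10 spots of 1 array), with overlapping spots. A dim probe of Bcl2l1 gave 30.7 units in CKO and 19.1 in WT, a log2 difference of 0.68. Another was well above background in CKO only, at 32.9 units against 22.7. The 4 pro-survival genes thus split, Bcl2 and Bcl2l2 lower and the others slightly higher, and their median lay 0.16 below that of all genes. Bak1, the partner of Bax, was lower in CKO with both probes, at 251 against 327 units and at 141 against 156, so the pair of membrane-opening genes differed in opposite directions.

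At 1.5-fold, 6 measured members (18.8%) were higher in CKO, against 9.35% of all measured genes, and 2 (6.25%) were lower, against 14.7%. The 6 were Tnfrsf1a, Ripk3, Birc3, Tnfrsf10b, Ripk1 and Bax, and the 2 were Bcl2 and Bcl2l2.

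**Figure D4:**
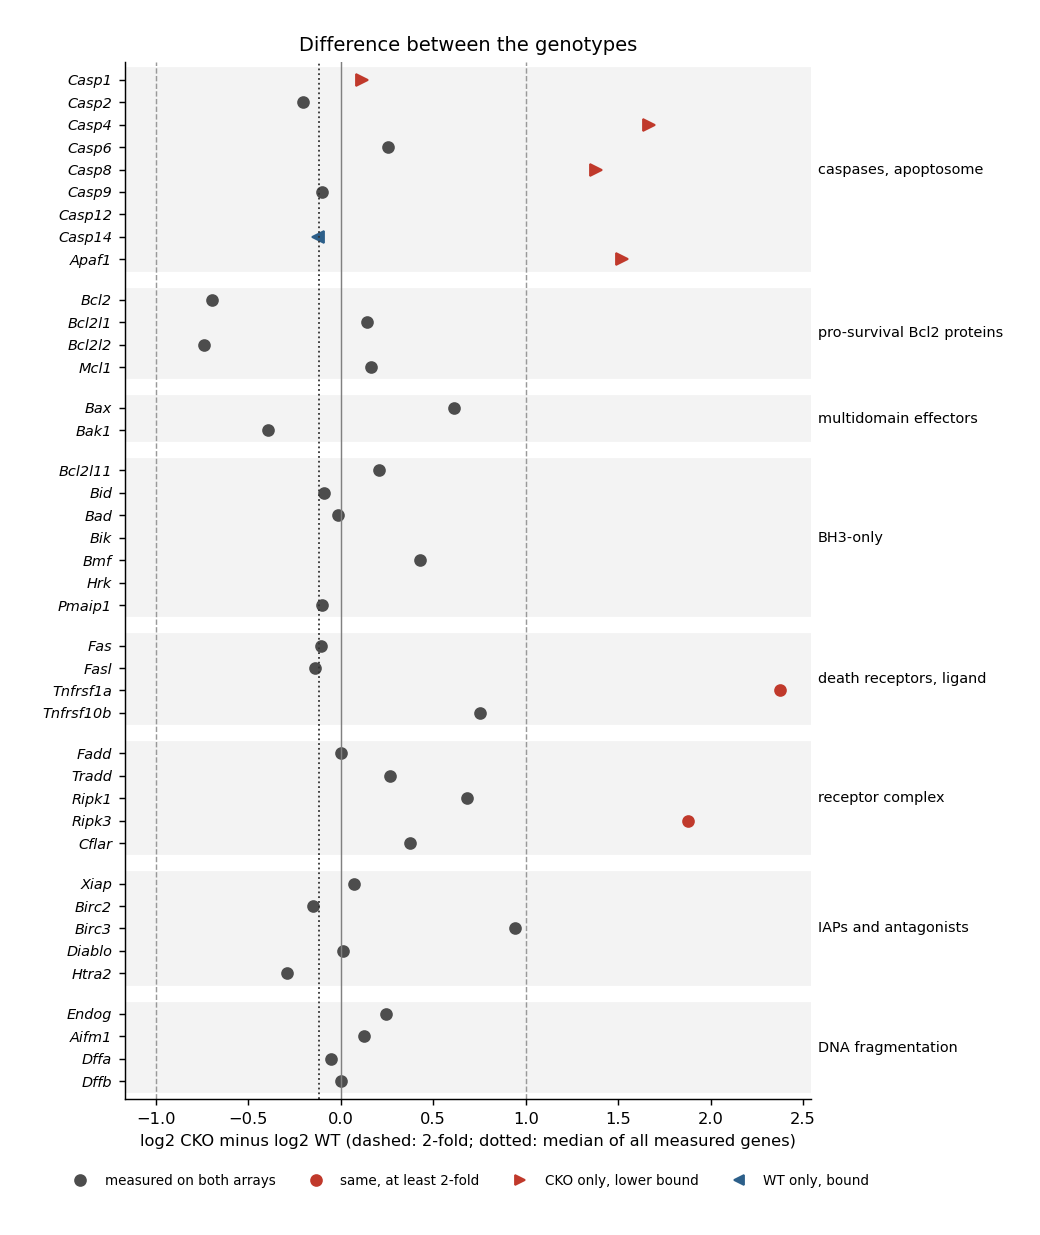
log2 CKO minus log2 WT of each gene by role (points), with triangles at the bound of genes seen on 1 array only, the 2-fold lines dashed and the median of all measured genes dotted. Tnfrsf1a at 2.38 and Ripk3 at 1.88 are the points beyond 2-fold, Casp4, Apaf1 and Casp8 lie beyond it as bounds, and no gene lies beyond it on the left.

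The BH3-only genes are sensors that start the intrinsic pathway. Of the 7 among the 40 genes, 5 were measured and none of these differed by 1.5-fold, whereas Bbc3, a BH3-only gene of the wider list, was 2.64-fold higher in CKO. Bcl2l11, which encodes Bim, gave 598 units in CKO and 515 in WT, and a second probe 98.8 and 61.1. Bmf, a sensor of lost attachment, gave 165 and 121 units with its brightest probe and 35.1 and 45.2 with another, so its probes ran opposite ways. Bid, which links Casp8 to mitochondria, gave 429 and 454 units, and Pmaip1, the p53 target Noxa, gave 420 and 448. Bad, a sensor of growth factor withdrawal, gave 33.8 and 34.0 units with the measured probe. That probe, chr19:7025594-7025653, lies on the minus strand in the files, whereas the other Bad probe, chr19:7016618-7016677, lies on the plus strand, so the value of Bad is uncertain. The plus-strand probe was well above background in CKO only, at 44.4 units against 15.8. Bik and Hrk were not well above background on either array. The 5 measured genes ranged from -0.10 to 0.43 on the log2 scale.

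Among the inhibitor of apoptosis proteins, Birc3, which encodes cIAP2, a ubiquitin ligase of the TNF receptor complex, was the highest. It gave 40.8 units in CKO and 21.1 in WT, 1.92-fold, just under the 2-fold threshold, and with normexp its log2 difference was 0.35. Its other probe was not well above background on either array. Its neighbour Birc2, which encodes cIAP1, gave 196 and 216 units, and Xiap, which blocks caspases directly, gave 47.4 and 44.8. The mitochondrial antagonists of these inhibitors were close as well. Diablo gave 657 and 647 units with its bright probe and 30.3 and 44.4 with a dim one, and Htra2, a protease of the intermembrane space, gave 2689 and 3270.

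The genes that cut DNA late in apoptosis were close between the genotypes with their brightest probes. Endog, a mitochondrial nuclease, gave 102 units in CKO and 85.8 in WT, and Aifm1, which moves from mitochondria to the nucleus, gave 566 and 516. A dimmer Aifm1 probe gave 55.4 and 36.9, a log2 difference of 0.58. Dffb, the nuclease that makes the apoptotic ladder, gave 28.1 and 27.9 units. Its inhibitor Dffa gave 88.0 and 90.8 with the brightest of its probes, while the dimmer ones were higher in CKO, at 41.9 against 27.2 and 40.7 against 29.1.

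**Figure D5:**
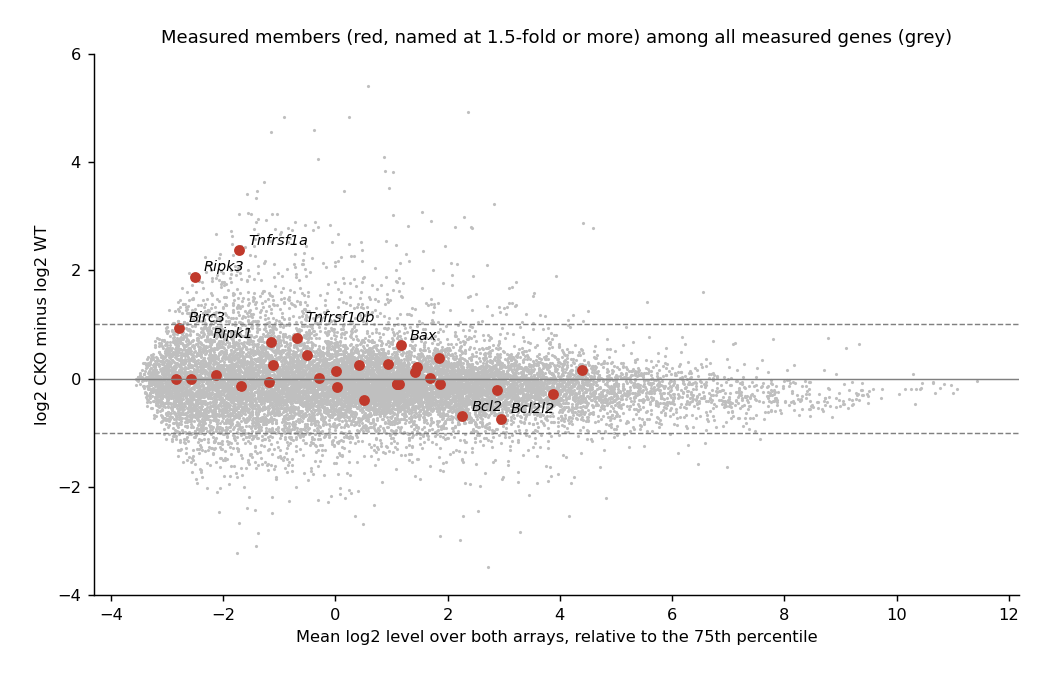
Difference between the genotypes (log2 CKO minus log2 WT) against the mean level over both arrays (log2, relative to the 75th percentile) for all 14232 measured genes in grey and the 32 measured members in red, named at 1.5-fold or more. Tnfrsf1a, Ripk3 and Birc3 lie at the dim end, where calls were more common, and Bax, Bcl2 and Bcl2l2 lie above the 75th percentile.

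Differences of this size were more common among dim genes. Below the median level, 6.2% of measured genes were at least 2-fold higher in CKO and 5.06% at least 2-fold lower, against 2.02% and 2.92% at or above it. Tnfrsf1a and Ripk3 lay at percentiles 99.5 and 99.0 of the differences of all measured genes, and Bcl2l2 and Bcl2 at 9.17 and 10.4.

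A wider list held 82 other cell death genes, of which 80 were on the array and 57 measured. In this list 6 of the 57 were at least 2-fold higher in CKO, against 4.11% of all measured genes. A further 3 of the 57 were at least 2-fold lower, against 3.99%, and the median difference lay 0.01 below that of all genes. Among the higher ones, Bbc3, the BH3-only p53 target PUMA, gave 1014 units against 381, and Bag3, a co-chaperone that counters cell death, gave 1696 against 703. Ngfr, the neurotrophin receptor with a death domain, gave 7081 against 2969.5, and its second probe had a log2 difference of 1.23. Tnfrsf25, another receptor with a death domain, gave 1799 against 855, and Septin4, which has a pro-apoptotic form that binds Xiap, gave 638 against 293. The lower ones were Birc7, an inhibitor of apoptosis (135 units in CKO, 356 in WT), the cytokine gene Lta (24.1 and 70.5) and the decoy receptor gene Tnfrsf23 (24.8 and 61.5). Birc7 is also counted among the lens fibre markers below. Another 5 of the 80 were well above background in CKO only, against 3.93% of all genes on the array. Of the 80, 4 were so by at least 2-fold, against 1.37%. Bcl2a1b, a haematopoietic pro-survival gene with near-identical copies and so uncertain, was at least 7.995-fold higher. The others were Tnfrsf21 (at least 2.38-fold), Traf5 (at least 2.32-fold) and Gsdmd, the pore-forming target of Casp1 and Casp4 (at least 2.31-fold). Tnf itself was not well above background on either array, at 3.87 and 3.94 units.

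Markers of other cell types differed on the same arrays. Of 18 macrophage markers, 8 were measured, 6 of these were at least 2-fold higher in CKO, and 9 more were seen in CKO only. The summed signal of the 18 was 6947 units in CKO and 1084 in WT. Cd68, Adgre1, Fcgr3 and C1qa were among those not well above background in WT. The 8 measured markers were well above it in WT too, such as Csf1r at 39.1 units and Fcer1g at 95.1. Not all ran this way: Itgam was seen in WT only, at 21.8 units against 6.30, and C1qb was level, at 665 in CKO and 668 in WT, which is most of the WT sum. Of 13 vascular markers, 9 of the 12 measured were at least 2-fold higher, and the sum was 8009 against 3207. Of 6 fibroblast markers, 3 were measured and 3 were seen in CKO only, with a sum of 9191 against 666. Of the 3 measured, 2 were at least 2-fold higher. Pdgfra was level, at 425 units in CKO and 447 in WT, which is most of the WT sum. Macrophages, vessels and fibroblasts express Tnfrsf1a, and macrophages express Casp1, Casp4, Casp8 and Ripk3. In bulk RNA, more cells of a type and more RNA per cell cannot be told apart, and the part of these cell types in the differences above was not tested. The lens fibre markers had 3 of 15 at least 2-fold lower (Lgsn, Dnase2b and Birc7) and a median 0.24 below that of all genes. All 9 lens epithelium markers were measured, with Pdpn at least 2-fold higher in CKO, Clu at least 2-fold lower and a median 0.05 below. Their sum was 31807 units in CKO and 61054.5 in WT, most of it from Sfrp1 and Clu. Among 7 red blood cell markers 4 were measured, with Slc4a1 at least 2-fold lower in CKO, and the sum was 6465 against 7210. Of 7 neutrophil markers none differed by 2-fold and 5 were not well above background on either array. Of 8 markers of T and NK cells, the cells that make Fasl, 5 were not well above background on either array, and Cd2 alone was seen in CKO only. Of 8 markers of the surface epithelium, where Casp14 is made, 2 were measured, with Krt1 lower in CKO (19.7 against 183 units) and Krt10 level.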

How the data were processed

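Lens RNA of 1 CKO and 1 WT sample was hybridised to an Agilent mouse array (design 014868), in 1 channel. The authors deposited scanner files with spot intensity, corrected for background and spatial trend by Feature Extraction 10.7.3.1 per the file headers, and not normalized between arrays. A deposited value table, in log2 and with its scaling unstated, served as an alternative only. Positions are mm9 per the file headers.

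Log2 of the processed intensity was taken after scaling to the 75th percentile of non-control spots (203 and 201 units). Outlier spots were left out, spots of a probe averaged, and the brightest measured probe taken for each gene. Detection of a probe needed the scanner's mark on over 50% of its spots. Only 1 array per genotype limits the precision. The 40 members, the role groups, the wider list, the markers and the settings were chosen with earlier results of these data known. Members at least 2-fold different, or with an at-least fold of 2 or more, were described in full, and genes of the wider list were named at 2-fold, except 1 that is not reported here, with a few related genes named for context. Marker and wider-list symbols were matched by the file's name or, failing that, through the RefSeq table (GRCm38.p6). The procedure was tested on simulated data. Tools were Python 3.11.15, pandas 2.3.3, and limma 3.58.1 in R 4.3.3 for normexp.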

Additional observations from a re-analysis of the deposited data

How the results depend on the processing

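No paired analysis was possible because each genotype has 1 array, and leaving out a replicate could not be done for the same reason. The count of members at least 2-fold higher in CKO was 2 and stayed 2 or 3 except in the following cases. It was 1 with normexp background correction (Tnfrsf1a), whose offset alone holds Ripk3 under 2-fold, 7 with no filter on detection (Casp1, Casp4, Casp8, Casp12 and Apaf1 in addition) and 6 at a 1.5-fold threshold. The count at least 2-fold lower was 0 throughout and 2 at 1.5-fold. The median difference of the members ranged from -0.04 with median scaling to 0.13 with no filter on detection, and lay between 0.10 and 0.19 above that of all genes in every setting. The 5 genes seen on 1 array only did not differ with outlier spots kept, with any marked spot counted or with updated symbols. Their probes had 1 spot on each array, so the settings for outlier and marked spots could not test these calls. Of 320 values of single members, 312 moved by at most the SD between probes of a gene (0.36) and 8 by more, 4 of these with normexp. The total overstates stability, because several settings left most values untouched. No value of a measured member moved with no filter on detection, with probes above the median level or with updated symbols. Median scaling shifted all of them by the same amount. Over all genes 585 were higher and 568 lower (50.7% higher), but 504 and 749 with median scaling (40.2% higher) and 234 and 219 with normexp. Signals near background limit Casp1, Casp4, Casp8, Casp12, Casp14, Apaf1, Ripk3 and Birc3. The fold of Tnfrsf1a also rests on a dim WT signal, with a mean of 26.8 units.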
